A study of Rattus norvegicus with 6 samples.

Results

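Mdm2, Phlda3, Ccng1, Sesn1, Sesn2, Zmat3, Eda2r, Gdf15 and Aen are p53 target genes other than Cdkn1a. They were taken by symbol from a matrix of 30452 genes, and 8 of the 9 were found; Eda2r was not analysed here. The study dissociated the hippocampus of male rats into single cells 2 months after 20 Gy was given to the whole brain, and sequenced them with the Chromium 3′ v3 kit. The labels name 3 control samples, described only as control and as male, and 3 irradiated samples of the same sex and tissue. No sorting step is described, but red cells were lysed and dead cells were taken out with beads, so cells lost at these steps are not seen. The labels used here name neither strain nor age.

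The matrix holds 6 libraries, told apart by the number at the end of each cell barcode. No label ties these numbers to the labelled samples, and 0 of the 6 could be assigned to the control or the irradiated group. The question of the design, how irradiated hippocampal cells differ from control cells, was therefore not tested for these genes. Values are given by cell class and by library, without a group, without a test between libraries and without a p-value.

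p53 is a transcription factor held at a low level by Mdm2, the ubiquitin ligase that marks it for degradation and is itself a p53 target. DNA damage frees p53, which then raises genes that stop the cell cycle (Cdkn1a), act in apoptosis (Aen, a nuclease; Phlda3, an inhibitor of Akt) or limit stress (Sesn1 and Sesn2, regulators of mTORC1). Ccng1 encodes cyclin G1, which works with phosphatase 2A on Mdm2, Zmat3 encodes an RNA-binding protein, and Gdf15 encodes a secreted stress cytokine that acts on neurons of the hindbrain. Sesn2 and Gdf15 are also targets of the ATF4 stress pathway.

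p53 binds a pair of decamers, and the promoter sequences around such decamers are shown for the 3 members whose promoter window held one. The sequences are from RefSeq, rat assembly GRCr8, 5′ to 3′ on the strand of the gene, with the decamer that matches the p53 half-site in capitals. The Ccng1 stretch is chr10:25685067-25685126 on the minus strand, with the decamer at position -232 counted from the annotated start. The Sesn1 stretch is chr20:46948522-46948581 on the plus strand, with the decamer at -172. The Aen stretch is chr1:142224478-142224537 on the plus strand, with the decamer at -30. Cdkn1a is shown for comparison, at chr20:7150706-7150765 on the plus strand, with the decamer at -201.
Ccng1: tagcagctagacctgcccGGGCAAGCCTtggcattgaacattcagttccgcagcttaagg
Sesn1: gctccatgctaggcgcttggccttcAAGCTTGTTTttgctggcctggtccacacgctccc
Aen: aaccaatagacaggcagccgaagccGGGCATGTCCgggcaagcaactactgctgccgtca
Cdkn1a: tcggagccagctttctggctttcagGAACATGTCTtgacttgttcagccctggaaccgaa
Windows of 300 bases from 250 before the start were searched on both strands for a perfect match to the p53 half-site. Such a match was in 7.98% of 33469 promoter windows. The windows of Mdm2, Phlda3, Sesn2 and Gdf15 held none, which says only that these letters are not in them. Zmat3 had no entry. A match is not shown to be bound in these cells.

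The libraries held 46853113 to 62094407 UMIs (unique molecular identifiers, each counted as 1 transcript) over 58078 barcodes. After filters on depth and on mitochondrial transcripts, 44800 cells were kept, 5370 to 9563 per library, with a median of 4949 UMIs. Of 44550 distinct barcode sequences among kept cells, 250 occurred in more than 1 library. Library 3 went against its label: the Y-linked genes Eif2s3y and Kdm5d had 0 UMIs there, which allows at most 0.0734 CPM (UMIs of a gene per 1000000 UMIs), against 63.8 to 69.2 CPM and 17.7 to 26.4 CPM in the other 5 libraries. All 6 samples are labelled male, so results that turn on library 3 are also given without it.

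Clusters were named by marker genes, and levels are CPM over the summed UMIs of all cells of a class. Microglia-like cells numbered 21706, astrocyte-like cells 11840, and a macrophage-like population with Clec7a and Lyz2 7644. The smaller classes were 909 T or NK cell-like, 848 mature oligodendrocyte-like, 375 oligodendrocyte precursor-like and 233 neutrophil-like cells. Cluster 13 (888 myeloid cells led by Ttr and haemoglobin genes) and cluster 17 (197 cells with all 8 measured endothelial and all 11 pericyte or fibroblast markers at 20 CPM or more, but led by the haemoglobin gene Hbb-b1) were left unnamed. The precursor-like class also carried 6 of 8 neuroblast markers and all 10 markers of dividing cells at 20 CPM or more. Markers of other classes were present in each class: 8 of 11 astrocyte markers reached 20 CPM in microglia-like cells, where their sum was 1075 CPM against 22890 CPM in astrocyte-like cells. The part of such RNA in the levels below was not tested.

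The 8 genes differed in where they were found. The class levels that follow pool all libraries, which hold the classes in different shares. Phlda3 was highest in mature oligodendrocyte-like cells, at 116 CPM (exact 95% Poisson interval 106 to 126, 557 UMIs), above precursor-like cells at 42.2 (34.9 to 50.5), cluster 17 at 41.0 (29.9 to 54.8), astrocyte-like cells at 24.6 (23.5 to 25.8) and cluster 13 at 24.1 (17.8 to 32.0). Microglia-like cells followed at 16.0 (15.3 to 16.8), then Clec7a Lyz2 macrophage-like cells at 6.18 (5.46 to 6.97) and T or NK cell-like cells at 5.59 (3.62 to 8.26). Neutrophil-like cells, at a median of only 1262 UMIs, held 0 Phlda3 UMIs, which allows up to 7.80 CPM. The pooled oligodendrocyte value did not overlap the next in this order, whereas precursor-like cells and cluster 17, astrocyte-like cells and cluster 13, and macrophage-like and T or NK cell-like cells did not differ beyond their counting intervals. These intervals cover counting error only, here and throughout. The pooled order did not hold within each library: in libraries 4, 5 and 6 microglia-like cells, at 57.4, 82.5 and 105 CPM, lay above astrocyte-like cells, at 26.0, 36.0 and 37.4, and above cluster 13, at 46.1, 54.9 and 23.5. In library 5 oligodendrocyte-like cells, at 159 CPM (141 to 178), overlapped precursor-like cells, at 140 (102 to 189, 49 cells). In libraries 1, 2, 4 and 6 oligodendrocyte-like cells were higher and their intervals did not overlap.

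The high Phlda3 level of oligodendrocyte-like cells was present in each library, at 66.1, 84.5, 69.2, 122, 159 and 221 CPM in libraries 1 to 6, the last from 25 cells. Astrocyte-like cells of the same libraries lay at 5.53, 1.96, 4.68, 26.0, 36.0 and 37.4 CPM, below the oligodendrocyte-like cells in all 6. Sesn2, the stress-induced sestrin, had the opposite placing: 4.37 CPM (2.70 to 6.68, 21 UMIs) in oligodendrocyte-like cells, the lowest of the 9 populations, against 49.6 (47.5 to 51.8) in macrophage-like and 44.1 (42.9 to 45.3) in microglia-like cells. Aen was lowest in the same oligodendrocyte-like cells, at 10.8 CPM (8.08 to 14.2), and lay between 23.4 and 36.8 CPM in the other 8 populations, of which the neutrophil-like value, from 9 UMIs, overlapped it.

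Gdf15 was found mainly in 3 populations. It reached 54.6 CPM (41.7 to 70.3) in cluster 17, 27.4 (25.9 to 29.0) in macrophage-like and 7.63 (7.14 to 8.14) in microglia-like cells, and no interval among these overlapped. Every other population, taken as a whole, was at or below 1.79 CPM, and neutrophil-like cells held 0 UMIs, which allows up to 7.80 CPM. Within the astrocyte-like class, cluster 11 held 50 of the 122 Gdf15 UMIs. Of its 1134 cells, 1067 were of library 4. Those cells were at 12.9 CPM (9.56 to 17.1), against 0.85, 1.80 and 2.31 CPM in clusters 3, 7 and 9 of that library. By markers, cluster 11 was next closest to the macrophage-like class, and the part of this in its Gdf15 was not tested. In cluster 17 the 60 Gdf15 UMIs were in 10.7% of the cells, and the 3 libraries with at least 20 such cells gave 155, 33.2 and 50.0 CPM.

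Zmat3 was highest in the precursor-like cells, at 23.6 CPM (18.2 to 30.0), and in astrocyte-like cells, at 20.8 (19.8 to 21.8), which did not differ beyond their intervals. Microglia-like cells had 8.07 (7.56 to 8.60) and macrophage-like cells 5.69 (5.00 to 6.45). Sesn1 was highest in T or NK cell-like cells, at 69.6 (62.0 to 77.7), and precursor-like cells, at 67.9 (58.6 to 78.2), and these overlapped too. Ccng1 was at 96.4 in cluster 13, 96.1 in precursor-like and 90.2 in astrocyte-like cells, with overlapping intervals, and at 18.2 (7.31 to 37.5, 7 UMIs) in neutrophil-like cells. Within libraries 4, 5 and 6 the pooled placing of Ccng1 did not hold. Microglia-like cells were at 205, 114 and 239 CPM, above astrocyte-like cells at 112, 88.9 and 127. Precursor-like cells were at 117, 98.0 and 193, below microglia-like cells but with overlapping intervals in libraries 5 and 6. Cluster 13 was at 220, 112 and 121, and its interval overlapped the microglial one in libraries 4 and 5. Mdm2 was at 31.7 CPM in astrocyte-like, 34.0 in macrophage-like and 46.5 in microglia-like cells. The neutrophil-like value of 80.6 rested on 31 UMIs, and its interval (54.7 to 114) overlapped that of the precursor-like cells.

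**Figure D1:**
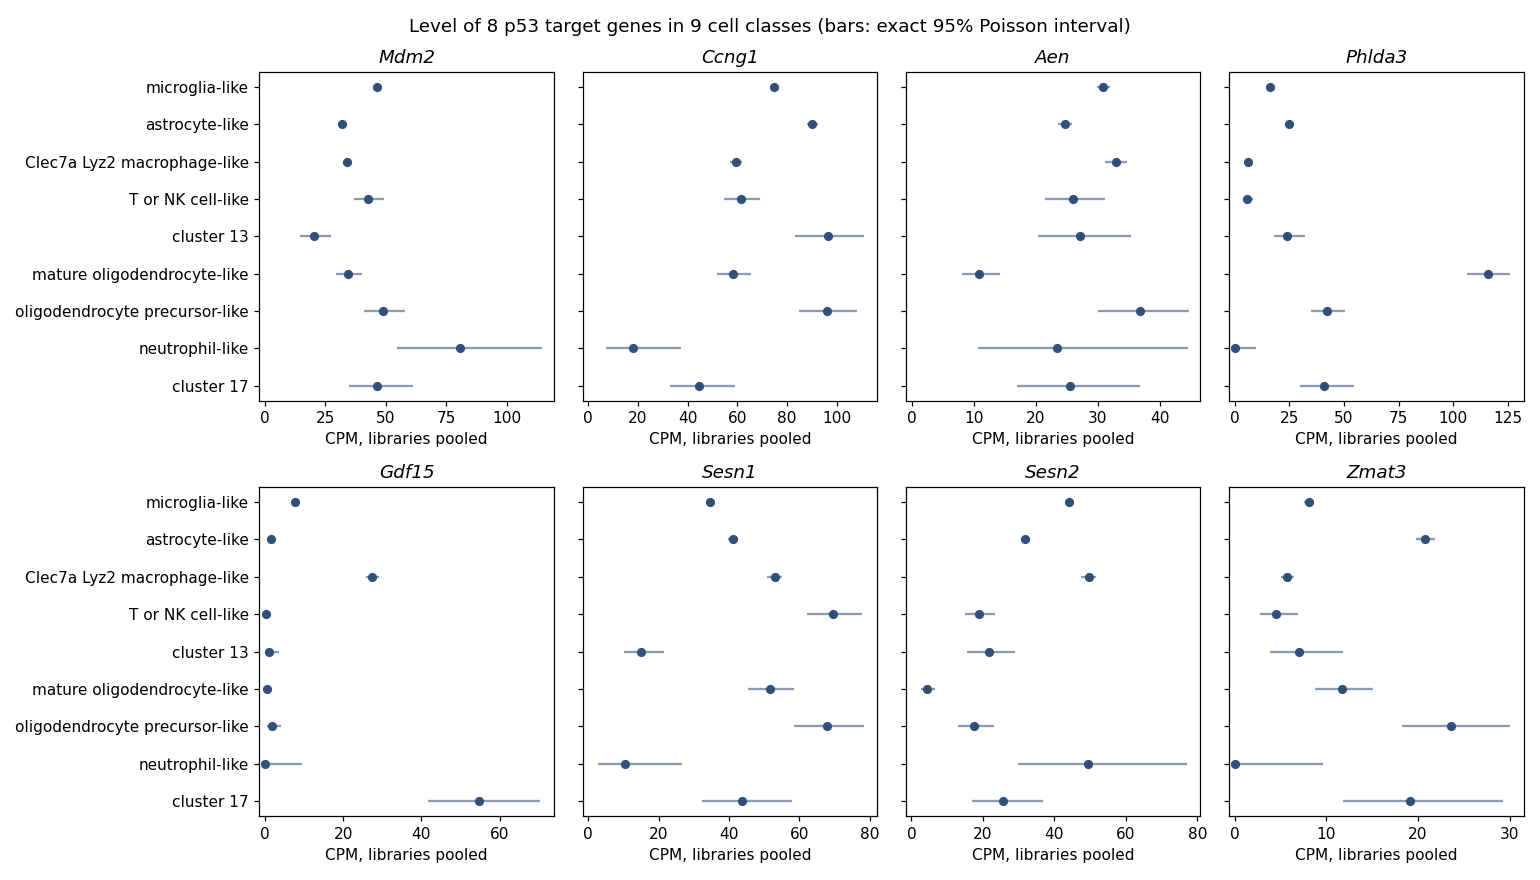
Each panel plots one gene: the level in CPM over the pooled libraries (horizontal axis, linear) in each of 9 populations of at least 100 cells, with points for the value and bars for the exact 95% Poisson interval. Phlda3 stands out in mature oligodendrocyte-like cells at 116 CPM, Gdf15 in cluster 17 and macrophage-like cells, and Sesn2 is lowest in mature oligodendrocyte-like cells at 4.37 CPM.

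The genes whose profiles over the 9 populations were most like those of the members, by Pearson's r of log2(CPM + 1), are given as a description of 9 points that share libraries. Setd3 (r = 0.97), Erlec1 (0.96) and Rchy1 (0.96) were nearest to Phlda3. Ctc1 (0.99) was nearest to Zmat3, Prpf4 (0.99) to Sesn1, and Map4 (0.95) to Gdf15. Rcc1l (0.96) was nearest to Ccng1, Pgghg (0.96) to Sesn2 and Smad2 (0.92) to Aen. The nearest to Mdm2 was a gene known by identifier only, followed by Gmpr2 (0.97). These neighbours depended on the points used. Over 28 points, each a class within 1 library, the highest r for Phlda3 was 0.69, with another gene. Of the genes named here, only Prpf4, for Sesn1 (0.90), was again among the few nearest.

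Between astrocyte-like and microglia-like cells, the pooled levels put Phlda3, Ccng1, Sesn1 and Zmat3 higher in astrocyte-like cells, 4 of the 8 genes. Among the 7 members tested these were 4, where 61.7% of genes tested were higher. Zmat3 passed 2-fold, at 2.57 times the microglial level; it was the 1 of 7 members tested that did so, where 31.7% of 10448 genes tested were at least 2-fold higher. None of the 7 was at least 2-fold lower, where 17.5% of all genes were. Gdf15 fell under the filter of a mean of 5 CPM over both classes.

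The pooled values of Phlda3 and Ccng1 did not describe all libraries. Most microglia-like cells came from libraries 1 to 3 (4472, 6546 and 7035 cells, against 1715, 1417 and 521). Most astrocyte-like cells came from libraries 4 to 6 (4001, 2417 and 2041, against 544, 1313 and 1524). In libraries 1, 2 and 3 astrocyte-like cells held Phlda3 at 5.19, 1.16 and 4.57 times the microglial level, from 19, 21 and 28 UMIs. In library 2 the intervals overlapped. In library 1, 16 of the 19 UMIs were in cluster 7 (195 cells, 13.6 CPM). Cluster 3 of that library (224 cells) held 2, at 0.96 CPM against 1.07 in microglia-like cells. In libraries 4, 5 and 6 astrocyte-like cells held Phlda3 at 0.454, 0.437 and 0.356 times the microglial level. Ccng1 was at 0.772, 1.08, 1.19, 0.548, 0.78 and 0.532 times the microglial level in libraries 1 to 6. With libraries weighted equally, 2 of 8 members were higher in astrocyte-like cells, Sesn1 and Zmat3, where 60.1% of genes were. The mean of the log2 ratios within libraries also gave 2, where 60.4% of genes were higher. Zmat3 was higher in astrocyte-like cells in each of the 6 libraries, the 1 of 8 members to be so, where 49.6% of genes were. Mdm2, Sesn2 and Gdf15 were lower in each of the 6, where 29% of genes were. The other lists of p53 targets differed in direction when pooled. Of the cell-cycle targets 6 of 7 were at least 2-fold lower in astrocyte-like cells, Btg2 and Plk3 the lowest, with a median log2 ratio of -2.04 against 0.29 over all genes. Of the cell death targets 4 of 9 were at least 2-fold lower (median -0.59), Pmaip1 and Bbc3 the lowest. Of the repair and metabolism targets 3 of 11 were at least 2-fold higher and 0 at least 2-fold lower (median 0.31), Ephx1 and Fdxr the highest. The members' median was 0.22.

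Sorted by library, Phlda3 in microglia-like cells was at 1.07, 1.68, 1.02, 57.4, 82.5 and 105 CPM in libraries 1 to 6. The 3 highest values were in libraries 4, 5 and 6, and the highest was 103 times the lowest. Its span was wider than that of 99.7% of the 9437 genes tested. Library 3, the lowest, did not set this: without it the span was 98.5.

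Ccng1 in microglia-like cells was at 80.7, 31.3, 34.2, 205, 114 and 239 CPM in libraries 1 to 6, a span of 7.63. Libraries 6 and 4 were highest and libraries 2 and 3 lowest, with library 1 between. The order of the libraries was 6, 4, 5, 1, 3, 2 from the highest, and Ccng1 in astrocyte-like cells had the same order, at 62.3, 33.7, 40.6, 112, 88.9 and 127 CPM in libraries 1 to 6. In oligodendrocyte-like cells, too, libraries 2 and 3 were the lowest, at 39.8 and 29.5 CPM, and library 1, at 68.2, was above library 5, at 63.7.

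Aen in microglia-like cells was at 18.5, 21.4, 18.8, 64.1, 89.4 and 80.4 CPM, a span of 4.84, with libraries 5 and 6 highest and libraries 1 and 3 lowest. Gdf15 was at 6.80, 2.50, 6.34, 19.4, 17.5 and 13 CPM, a span of 7.76, which fell to 3.06 without library 2. Both genes had their lowest values outside libraries 4, 5 and 6.

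The other 4 members varied less. Mdm2 was at 36.9, 38.9, 51.9, 47.2, 73.3 and 79.0 CPM, a span of 2.14, and Sesn2 at 48.4, 45.9, 29.9, 48.9, 58.9 and 62.5 CPM, a span of 2.09 that fell to 1.36 without library 3. Sesn1 ranged from 24.9 to 49.3 CPM and did not follow the order of Phlda3. Zmat3 ranged only from 7.50 to 11.2 CPM. Its 3 highest values were also in libraries 4, 6 and 5, at 11.2, 9.82 and 8.45 CPM. The interval of library 5 (6.55 to 10.7) overlapped those of libraries 1, 2 and 3. Cdkn1a was at 31.5, 19.6, 56.5, 201, 481 and 568 CPM.

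In all, 6 of the 8 members spanned at least 2-fold over the libraries in microglia-like cells (Mdm2, Phlda3, Ccng1, Sesn2, Gdf15 and Aen), where 30.3% of genes tested did, and the median span of the 8 was 3.49 against 1.67 over all genes. Without library 3 the count was 5, and without library 6 it was 4. Among p53 targets of the cell death list, 4 of 8 tested spanned 2-fold, with a median of 2.01. Rps27l, a ribosomal protein-like target, was at 93.7, 80.3, 93.1, 244, 244 and 305 CPM, and Bax, the pore-forming apoptosis protein, ranged from 93.4 CPM in library 2 to 177 CPM in library 5. In the list of p53 and its regulators 5 of 12 did, with a median of 1.80, and among paralogs of the members 2 of 5, with a median of 1.64. Of the ATF4 stress targets 5 of 8 did (median 2.36), of the cell-cycle targets 3 of 6 (2.11, Cdkn1a among them) and of the repair and metabolism targets 4 of 8 (1.99).

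Different clusters held the microglia-like cells of different libraries. Clusters 0 and 2 were mostly of libraries 1 and 2, clusters 5 and 6 of library 3, and cluster 4 held 1618, 1069 and 496 cells of libraries 4, 5 and 6, with 232 and 249 of libraries 1 and 2. Within cluster 4, Phlda3 was at 1.48 and 0.80 CPM in libraries 1 and 2 (2 UMIs and 1 UMI) and at 59, 92.9 and 107 CPM in libraries 4, 5 and 6. Within cluster 0, library 5 had 25.4 CPM (187 cells) where libraries 1 and 2 had 0.96 and 1.57 CPM. The difference between libraries was thus also present inside single clusters. Lgals3, a marker of the macrophage-like class, was at 0.43, 0.51, 2.53, 73.4, 69.5 and 94.9 CPM in microglia-like cells of libraries 1 to 6. Macrophage-like cells themselves held 5.30 to 7.10 CPM of Phlda3 in libraries 4, 5 and 6, less than microglia-like cells there.

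Counted per cell, 0.275%, 0.397% and 0.275% of microglia-like cells of libraries 1, 2 and 3 held a Phlda3 UMI once every cell was thinned to 2000 UMIs, and 7.91%, 12.5% and 15% of those of libraries 4, 5 and 6. Without thinning the shares were 0.69%, 0.78%, 0.45%, 21.0%, 26.9% and 45.7%. Thinning left out 15 to 486 shallower microglia-like cells per library. Macrophage-like cells of libraries 4, 5 and 6, at 1.03%, 1.49% and 0.98% after thinning, had shares far below those of microglia-like cells from the same libraries. No class is known to lack Phlda3, so its background share was not measured.

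**Figure D2:**
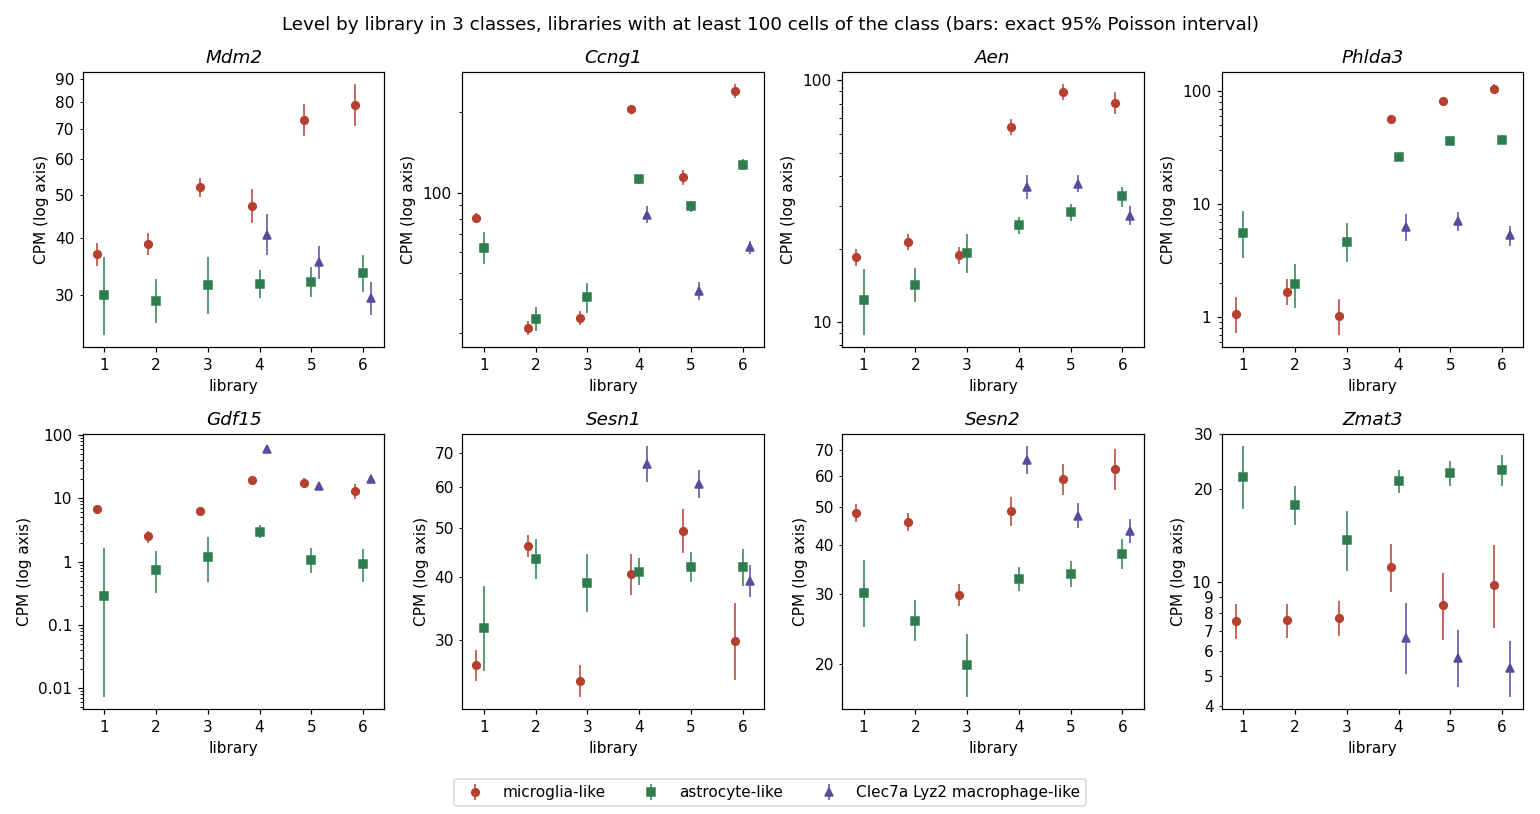
Each panel plots one gene: CPM on a log axis against the library number, in microglia-like (circles), astrocyte-like (squares) and Clec7a Lyz2 macrophage-like cells (triangles), for libraries with at least 100 cells of the class. Bars are exact 95% Poisson intervals. Phlda3 in microglia-like cells runs from 1.02 to 105 CPM over the libraries, while macrophage-like cells stay between 5.30 and 7.10 CPM.

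Astrocyte-like cells had 3 of 7 members tested with a 2-fold span, where 18.1% of genes had one: Phlda3, Ccng1 and Aen. Aen was at 12.2, 14.2, 19.2, 25.1, 28.4 and 33.0 CPM in libraries 1 to 6. Mdm2 was flat in these cells, from 29.1 to 33.5 CPM, and Sesn1 lay between 31.7 and 43.4 CPM. Zmat3 ranged from 13.7 to 22.9 and Sesn2 from 19.9 to 38.0 CPM, both lowest in library 3. Cdkn1a was at 2.33, 1.30, 1.67, 39.2, 45.9 and 44.9 CPM.

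Macrophage-like cells were set against microglia-like cells. They came almost entirely from libraries 4, 5 and 6 (1864, 3231 and 2503 of 7644 cells). Pooled, Sesn1, Sesn2, Gdf15 and Aen were higher in macrophage-like cells, 4 of 8, where 52.3% of genes were. Without library 3 the count was 3 of 8, and Aen was no longer among them. With libraries weighted equally it was also 3 (Sesn1, Sesn2 and Gdf15), where 47.9% of genes were higher. Gdf15 was the 1 of 8 at least 2-fold higher, where 8.4% of genes were, and Phlda3 the 1 of 8 at least 2-fold lower, where 8.01% of genes were.

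Both classes had at least 100 cells in 3 libraries. Phlda3 was at 6.31, 7.10 and 5.30 CPM in macrophage-like cells of libraries 4, 5 and 6, which was 0.110, 0.0861 and 0.0504 times the microglial level of the same library. Ccng1 was at 82.7, 43.0 and 62.5 CPM, or 0.404, 0.377 and 0.262 times. These were the 2 of 8 members at least 2-fold lower in each of the 3 libraries, where 5.09% of genes were, and 0 of 8 were 2-fold higher in each, where 3.35% of genes were.

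Aen was at 0.564, 0.417 and 0.342 times and Mdm2 at 0.864, 0.483 and 0.373 times the microglial level of libraries 4, 5 and 6. With Phlda3, Ccng1 and Zmat3 they made 5 of 8 members lower in macrophage-like cells in each of the 3 libraries, where 39.8% of genes were. Sesn1 was the 1 member higher in each, at 66.7, 61.0 and 39.2 CPM against 40.4, 49.3 and 29.9, where 28% of genes were. By the mean of the log2 ratios within libraries, 2 of 8 members, Sesn1 and Gdf15, were higher in macrophage-like cells, where 44.6% of genes were. Cdkn1a was at 94.1, 43.8 and 50.6 CPM in macrophage-like cells, against 201, 481 and 568 in microglia-like cells.

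Gdf15 differed between the 3 libraries in macrophage-like cells, at 61.0, 15.4 and 20.1 CPM, highest in library 4. It was the 1 of 8 members to span 2-fold in these cells, where 9.44% of genes did. Against microglia-like cells of the same library it was at 3.15, 0.878 and 1.55 times, so its direction was not the same in all 3.

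Microglia-like cells that held a Cdkn1a UMI were then set against those that held none, library by library, with every cell thinned to 2000 UMIs. Cells with a Cdkn1a UMI made up 4.38%, 2.54%, 6.25%, 21.0%, 41.3% and 39.5% of libraries 1 to 6. They had more Phlda3, Aen, Mdm2, Gdf15 and Ccng1, 5 of 8 members at or above 1.5-fold by the mean log2 ratio over libraries (5 CPM added to both sides), where 1.45% of the 9498 genes tested were. The median over the 8 members was 0.71 on the log2 scale, against -0.06 over all genes. The split was made within libraries but not within clusters, and clusters of a library differed in Cdkn1a. It was at 58.7 CPM in cluster 2 and 5.40 in cluster 0 of library 1. In library 3 it was at 87.5 in cluster 6 and 23.0 in cluster 5, and in library 5 at 540 in cluster 4 and 96.4 in cluster 0. The part of such cluster differences in the ratios was not tested.

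Phlda3 had the largest mean log2 ratio, 1.14, and was higher in cells with a Cdkn1a UMI in each of the 6 libraries. In libraries 4, 5 and 6 it was at 96.4, 130 and 125 CPM with and 32.5, 41.2 and 70.3 CPM without a Cdkn1a UMI. In libraries 1, 2 and 3 the cells with a Cdkn1a UMI held 2, 4 and 6 Phlda3 UMIs in all, at 5.24, 12.5 and 7.33 CPM against 1.20, 1.96 and 0.98. By value, those cells lay below the Cdkn1a-negative cells of libraries 4, 5 and 6, but on few UMIs and without intervals.

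Aen had a mean log2 ratio of 0.90 and Ccng1 of 0.59, and both were higher with a Cdkn1a UMI in 6 of 6 libraries. Aen reached 130, 126 and 110 CPM with and 48.9, 68.9 and 45.8 CPM without in libraries 4, 5 and 6. Mdm2, at 0.86, was higher in 5 of 6, the exception being library 2, with 37.5 against 41.4 CPM. Its largest ratio was in library 6, 153 against 39.2 CPM.

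Gdf15, at 0.82, was higher in 5 of 6 libraries, but 36 of its 63 UMIs in cells with a Cdkn1a UMI came from library 5, and without that library the mean was 0.51. Without library 5 the count of members was 3 (Mdm2, Phlda3 and Aen), and with thinning to 1000 UMIs it was also 3 (Mdm2, Phlda3 and Gdf15). Ccng1 fell under the threshold without library 3 (0.58), 4 (0.46) or 5 (0.53), and without library 3 the count was 4.

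The other 3 members were under 1.5-fold in microglia-like cells. Sesn2 had a mean log2 ratio of 0.32 and was higher with a Cdkn1a UMI in 5 of 6 libraries, at 0.15, -0.08, 0.31, 0.30, 0.84 and 0.40 in libraries 1 to 6. Zmat3 had a mean of -0.01 and Sesn1 of -0.22. In the wider pathway, 4 of 5 cell-cycle targets were past 1.5-fold, led by Btg2 (1.24) and Plk2 (0.94), with Cdkn1a itself left out. Of the cell death targets 3 of 8 were, led by Bbc3 (1.09), which encodes Puma, and Pmaip1 (1.08), which encodes Noxa. None of the 8 repair and metabolism targets and none of the 12 regulators were, and 2 of 8 ATF4 targets were, Atf3 and Ddit3. Over all genes the largest ratio was that of Atf3 (1.55), followed by Fosb, immediate early genes that cell dissociation is known to raise; their part in the result was not tested. Median depth before thinning was higher in cells with a Cdkn1a UMI in 5 of 6 libraries, for example 7214 against 5511 UMIs in library 4.

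Astrocyte-like cells could be split in libraries 4, 5 and 6 only, which had at least 50 cells with a Cdkn1a UMI. Thinning left out 623 of 4001, 371 of 2417 and 535 of 2041 astrocyte-like cells of these libraries as too shallow. There 6 of 7 members tested were past 1.5-fold, where 1.52% of genes were. Phlda3 was highest at 54.4, 148 and 158 CPM with and 23.6, 26.7 and 30.7 CPM without a Cdkn1a UMI, a mean log2 ratio of 1.84. Aen (1.17), Sesn2 (1.11), Ccng1 (1.09), Zmat3 (0.64) and Mdm2 (0.61) followed, and Sesn1 was at -0.31. Mdm2 in library 4 was the exception among these 6, with 32.3 against 34.3 CPM.

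In macrophage-like cells of the same 3 libraries, 0 of 8 members were past 1.5-fold, where 1.56% of genes were. Aen (0.42), Sesn2 (0.41), Mdm2 (0.40) and Phlda3 (0.37) had the largest mean log2 ratios, and Zmat3 was at -0.49 from 4 UMIs in cells with a Cdkn1a UMI. Phlda3 rested on 3, 4 and 3 UMIs in such cells of libraries 4, 5 and 6. It was at 7.01, 10.2 and 8.82 CPM with and 4.91, 7.28 and 4.61 CPM without a Cdkn1a UMI. At such low levels the 5 CPM added to both sides lowers the ratio. The difference between macrophage-like cells and the other 2 classes in this respect was not tested.

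**Figure D3:**
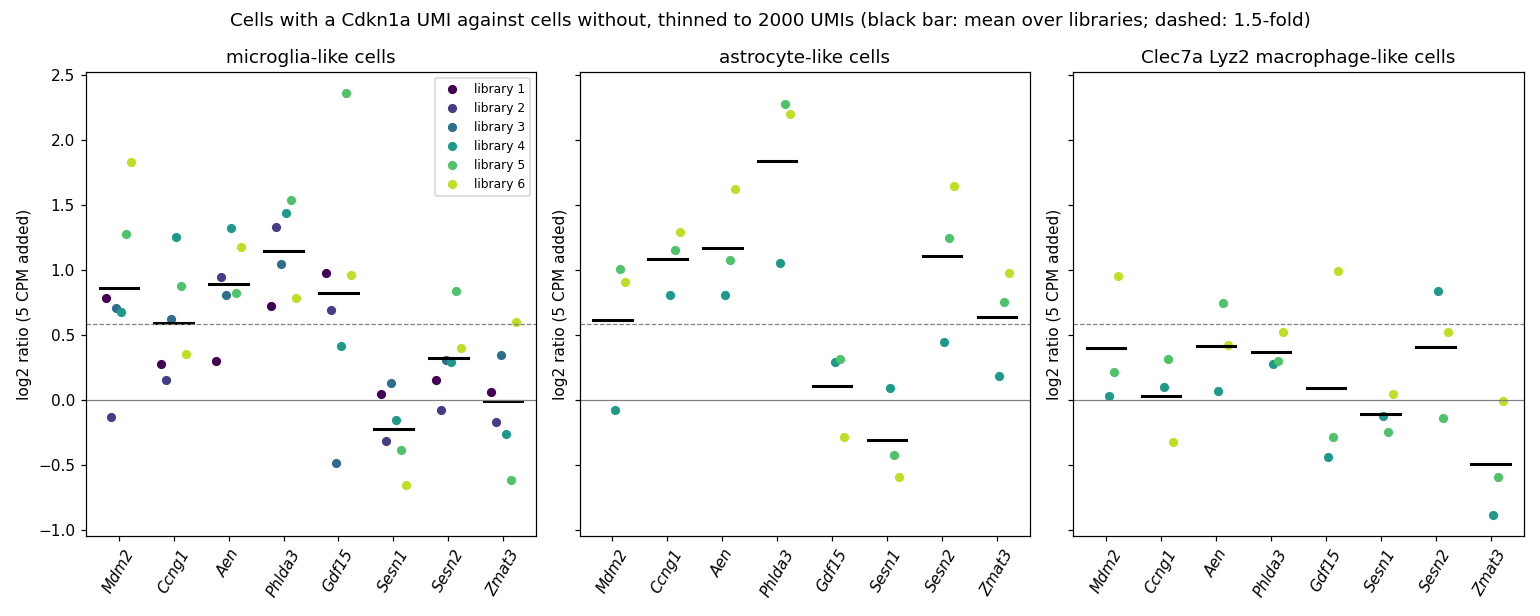
Each panel is a cell class and each point a library: the log2 ratio (5 CPM added) of the level in cells with a Cdkn1a UMI to that in cells without one, for the 8 genes on the horizontal axis, after thinning to 2000 UMIs. Black bars are means over libraries and the dashed line marks 1.5-fold. Phlda3 has the highest mean in microglia-like cells (1.14) and in astrocyte-like cells (1.84), and no mean passes the line in macrophage-like cells.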

How the data were processed

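The authors deposited UMI counts per gene and cell, whole numbers up to 6655, written by Cell Ranger 7.0.0 per the file headers. Per the labels the build is mm10, a mouse build, although the gene identifiers are those of rat; no source used here gives the annotation, the counting of introns or any equalizing of depth. No gene position was taken from the matrix.

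Barcodes with at least 500 UMIs, 200 genes and at most 20% mitochondrial UMIs were kept (48704 of 58078); 3904 were removed as doublets, the highest-scoring 0.8% per 1000 barcodes of a library against simulated doublets. Free RNA was not removed. Leiden clustering used resolution 1 (15 neighbours, 30 components, 2000 genes, members left out), which gave 20 clusters, 16 of them named. A name needed a mean marker log2 ratio of at least 1, a lead of 0.5, 3 passing markers, and leading genes that did not go against it; this rule was settled after the data were examined. Levels are CPM of summed counts. Calls of 2-fold used plain ratios, log2 ratios had 5 CPM added, genes needed a mean of 5 CPM, and a 0 was read against a floor of 3 counts. The exact intervals are 95% Poisson intervals and cover counting error only; UMIs remove PCR copies.

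The members and the gene lists were chosen with earlier results of these data known. Named genes were the members, Cdkn1a, the 3 genes of most like profile, and from each list the 2 largest and 2 smallest ratios; Rps27l, Bax, Lgals3, Mgmt, Mki67, Runx3 and Jchain were named after their values were seen. The planned edgeR test of irradiated against control samples was not run, since 0 libraries could be tied to a label. Alternatives covered filters, doublets, resolution, scaling, thinning and each library left out. The ratio and span steps were tested on simulated data. Software was leidenalg 0.10.2, python-igraph 0.11.9, scikit-learn 1.9.0, matplotlib 3.10.9, SciPy 1.17.1, NumPy 2.4.6 and pandas 2.3.3 under Python 3.11.15.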

Additional observations from a re-analysis of the deposited data

Results flagged for a closer look

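A total of 9197 barcodes had enough UMIs and genes but exceeded the mitochondrial limit, and they enter no comparison above. All 8 genes had a signal there above the limit that a count of 0 allows, 0.123 CPM. Outside mitochondrial genes, Mdm2 was at 39.97 CPM, Phlda3 at 17.74, Ccng1 at 98.46 and Aen at 24.81. Sesn1 was at 51.79 CPM, Sesn2 at 32.09, Zmat3 at 18.84 and Gdf15 at 3.311. On the same scale kept cells had 43.1 CPM of Mdm2, 20.8 of Phlda3, 83.5 of Ccng1, 31.5 of Aen, 44.7 of Sesn1, 43.2 of Sesn2, 12.8 of Zmat3 and 9.75 of Gdf15. The cell classes of these barcodes were not compared.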

How the results depend on the processing

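No paired analysis was possible because the barcode numbers of the libraries could not be tied to the numbered samples of the labels, and the planned test of irradiated against control samples was not run. The count of members higher in astrocyte-like than in microglia-like cells, 4, became 2 with libraries weighted equally and 2 by the mean of log2 ratios within libraries (chosen after seeing the data); it was 4 without each library in turn. The count higher in macrophage-like cells, 4, became 2 by that mean, was 3 to 4 without each library (3 without library 1, 2 or 3), 6 by marker score, 3 with libraries weighted equally, 3 with members among the clustering genes, and could not be made at resolution 0.5, where no cluster took that name. The 2-fold span count, 6, was 4 to 6 without each library (4 without library 6), 7 with doublets kept, 7 outside mitochondrial and ribosomal protein genes, and 5 at resolution 2.0. The count that followed Cdkn1a, 5, was 3 at resolution 2.0, 3 with thinning to 1000 UMIs, 4 with doublets kept, with members among the clustering genes or outside mitochondrial and ribosomal protein genes, and 3 to 5 without each library (3 without library 5). The cause of these moves was not tested. Of 224 levels of members in microglia-like and astrocyte-like cells under alternatives, 135 stayed within their counting interval and 5 moved by over 1.5 times: Phlda3 in microglia-like cells (9.27 CPM at resolution 2.0, 10.3 with cells classed one at a time by marker score) and Gdf15 in astrocyte-like cells (2.91 CPM with doublets kept, 1.04 by marker score, 0.92 without library 4). Depth limits genes of few UMIs, such as Gdf15 (2282 in kept cells) and Zmat3 (2998).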

Other observations

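The libraries carry no group, and their values for some members fell into separate sets. Phlda3 in microglia-like cells was at 1.07, 1.68 and 1.02 CPM in libraries 1, 2 and 3 and at 57.4, 82.5 and 105 CPM in libraries 4, 5 and 6, with no value between. Aen was at 18.5, 21.4 and 18.8 CPM in the first 3 and 64.1, 89.4 and 80.4 CPM in the last 3. Ccng1 did not separate as cleanly, since library 1 (80.7 CPM) lay nearer to library 5 (114) than to libraries 2 and 3 (31.3 and 34.2).

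Among genes with a mean of at least 5 CPM, Phlda3 had the 24th widest span over libraries in microglia-like cells. Of the wider spans, that of Eif2s3y was set by library 3 alone, at 61.1, 56.7, 0, 62.9, 55.4 and 66.1 CPM in libraries 1 to 6. Runx3, a transcription factor, was wider too, at 0.13, 0.24, 0.51, 11.7, 11 and 18.1 CPM. Jchain, the joining chain of antibodies, had a narrower span and was highest in library 2, at 27.6 CPM. Also narrower, Mgmt, which removes alkyl groups from guanine in DNA, was at 0.90, 0.93, 0.54, 22.1, 20.6 and 48.7 CPM, and Mki67, a marker of dividing cells, at 5.57, 11.2, 0.86, 65.1, 50.4 and 67.7 CPM. These genes were chosen after their values were seen.

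Paralogs of the members had other patterns in microglia-like cells. Ccng2, the paralog of Ccng1, was at 138, 145, 120, 95.5, 108 and 103 CPM in libraries 1 to 6. Phlda1, the paralog of Phlda3, was at 111, 104, 170, 104, 136 and 110 CPM in microglia-like cells, and at 588, 399 and 289 CPM in macrophage-like cells of libraries 4, 5 and 6, where Phlda3 was at 6.31, 7.10 and 5.30 CPM.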
